A study of Mus musculus with 12 samples.

Results

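The genes described here make and process ribosomal RNA. They are 38 genes chosen by name from known roles in the nucleolus, of which 21 belong to the small subunit processome, 8 act on the large subunit, 4 are nucleolar proteins that serve both subunits and 5 belong to RNA polymerase I. The choice was made with earlier results of these data known, so counts over these genes describe them and do not test the pathway. All 38 have at least 1 probe on the Illumina mouse bead array used, 69 probes in all. A gene was measured where a probe reached the detection level on at least 4 of the 12 arrays, and 30 of the 38 did. Of these 30 genes, 28 were detected on all 12 arrays. They are read against 9108 named genes measured in the same way.

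NIH-3T3 cells, mouse embryo fibroblasts that grow without limit in culture, were all kept for 24 hours in medium labelled LPDS, which lacks lipoproteins. The 3 groups of 4 arrays were unmodified cells (WT), a stable clone with the construct ShSnhg3, labelled as a knockdown of the small nucleolar RNA U17 (U17_KD), and a stable clone with the construct pMDβglobinU17b, labelled as overexpressing U17 (U17_OE). Snhg3 is the host transcript from which U17 is released. Each manipulated group is 1 clone, so the level of U17 and traits of that clone cannot be told apart, and neither clone has a control clone here. The labels call the arrays biological replicates without saying what was replicated, so p-values measure the spread between these arrays. The level of U17 and of Snhg3 was not analysed here. The study set out to find messenger RNAs regulated by U17.

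In the nucleolus, RNA polymerase I transcribes a long precursor that holds the RNAs of both ribosomal subunits. The small subunit processome, built around the U3 small nucleolar RNA, folds and cuts the part that becomes the small subunit RNA, while other factors mature the large subunit. U17 is an H/ACA box small nucleolar RNA that takes part in cutting the precursor on the small subunit side, rather than guiding a base modification. The transcription factor MYC, which binds the E-box CACGTG, is known to activate many genes of this pathway in growing cells.

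The 250 bases before the RefSeq start of a gene (build GRCm38.p6, both strands read as the same letters, since CACGTG is its own reverse complement) were searched for this E-box because most measured members moved together. The start is that of the listed promoter. Among genes with 1 listed promoter, the window ended at the annotated gene start for 74.7%, so a distance to the start can differ from that to the gene start. RefSeq promoters were given for 31 members, and 4 of them (12.9%) held the E-box, against 1634 of 27025 genes (6.05%). The members with the E-box were Rrn3, Imp4, Nop2 and Utp18. Shown first, 5′ to 3′ on the gene's strand with E-boxes in capitals, is the promoter of the gene with the largest called fall in U17_KD among those with a promoter in each class, followed by Imp3, which differed least. Rrp9 lies at chr9:106477059-106477308 (+ strand), Rrp1b at chr17:32035912-32036161 (+ strand) (the first of its 2 listed promoters), Ncl at chr1:86359456-86359705 (- strand), Rrn3 at chr16:13780449-13780698 (+ strand) and Imp3 at chr9:56937250-56937499 (+ strand).
Rrp9: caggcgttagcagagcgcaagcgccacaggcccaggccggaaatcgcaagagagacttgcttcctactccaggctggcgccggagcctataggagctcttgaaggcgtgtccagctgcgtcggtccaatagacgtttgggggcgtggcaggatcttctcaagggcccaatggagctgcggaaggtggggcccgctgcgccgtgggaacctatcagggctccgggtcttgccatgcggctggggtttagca
Rrp1b: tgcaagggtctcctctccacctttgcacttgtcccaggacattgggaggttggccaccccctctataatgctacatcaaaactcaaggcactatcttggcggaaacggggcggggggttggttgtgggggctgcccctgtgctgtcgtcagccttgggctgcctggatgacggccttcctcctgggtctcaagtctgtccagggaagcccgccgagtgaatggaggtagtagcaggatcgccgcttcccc
Ncl: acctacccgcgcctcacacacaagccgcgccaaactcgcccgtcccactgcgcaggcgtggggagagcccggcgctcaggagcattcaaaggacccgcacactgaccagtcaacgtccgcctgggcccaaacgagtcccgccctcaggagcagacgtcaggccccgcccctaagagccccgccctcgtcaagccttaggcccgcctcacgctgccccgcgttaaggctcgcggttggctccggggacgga
Rrn3: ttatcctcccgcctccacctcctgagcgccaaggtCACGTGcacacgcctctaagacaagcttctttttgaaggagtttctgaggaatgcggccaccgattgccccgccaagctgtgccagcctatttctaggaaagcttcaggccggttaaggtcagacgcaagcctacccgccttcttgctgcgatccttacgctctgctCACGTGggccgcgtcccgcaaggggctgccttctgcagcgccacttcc
Imp3: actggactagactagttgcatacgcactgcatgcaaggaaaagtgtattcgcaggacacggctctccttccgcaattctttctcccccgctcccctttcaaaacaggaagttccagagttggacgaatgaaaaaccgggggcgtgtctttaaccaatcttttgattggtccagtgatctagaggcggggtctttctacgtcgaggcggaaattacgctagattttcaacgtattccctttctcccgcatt
The promoter of Rrn3 holds 2 E-boxes, which begin 215 and 48 bases before the start. The other members with an E-box are shown as windows of 26 bases around it, Imp4 at chr1:34439698-34439723 (+ strand), Nop2 at chr6:125131813-125131838 (+ strand) and Utp18 at chr11:93885771-93885796 (- strand), in which it begins 121, 60 and 20 bases before the start.
Imp4: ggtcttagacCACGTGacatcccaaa
Nop2: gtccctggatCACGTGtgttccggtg
Utp18: gagcgccggtCACGTGgcttgcggcg
Rrp9, Rrp1b, Ncl and Imp3 have no E-box in this window. Of the measured members with a promoter, the 3 with an E-box had a median log2 fold change of -0.69 in U17_KD minus WT (-0.78 to -0.21), and the 21 without had -0.67 (-0.99 to -0.08). A match is a description of the letters and not of binding.

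Genes of ribosomal RNA synthesis and processing were lower in the knockdown clone. Against WT, 23 of the 30 measured members were lower in U17_KD, 0 were higher and 7 did not pass (limma, adjusted p under 0.05 over all probes), where 20.4% of all genes were called lower. The 23 include Nolc1, which passed the detection filter only through WT and U17_OE. With only probes detected on all arrays, 21 of 28 members were lower. The share of all genes under that filter is not given here. The 4 arrays of U17_KD lay below the 4 WT arrays for 22 members, against 22.4% of all genes. The median log2 fold change of the measured members was -0.63, beside -0.02 for all genes tested. At the probe used, every difference of the 30 was negative, from -1.18 in Tbl3 to -0.08 in Imp3. Of all genes tested, 4786 of 9108 were negative. Of the 16 other kept probes of the members, 15 had the same sign as the probe used. In bulk RNA, fewer cells that express a gene and less of its RNA per cell cannot be told apart. With no filter on detection, 22 of all 38 members were lower and 0 were higher, where 8.58% of 19057 genes were lower. At an unadjusted limma p under 0.05, 24 measured members were lower and 0 higher, where 24.4% of all genes were lower and 23.7% higher. At that threshold 9 members were lower and 0 higher in U17_OE minus WT (13% and 13.2% of all genes), and 21 were lower and 0 higher in U17_KD minus U17_OE (21.2% of all genes in each direction).

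**Figure D1:**
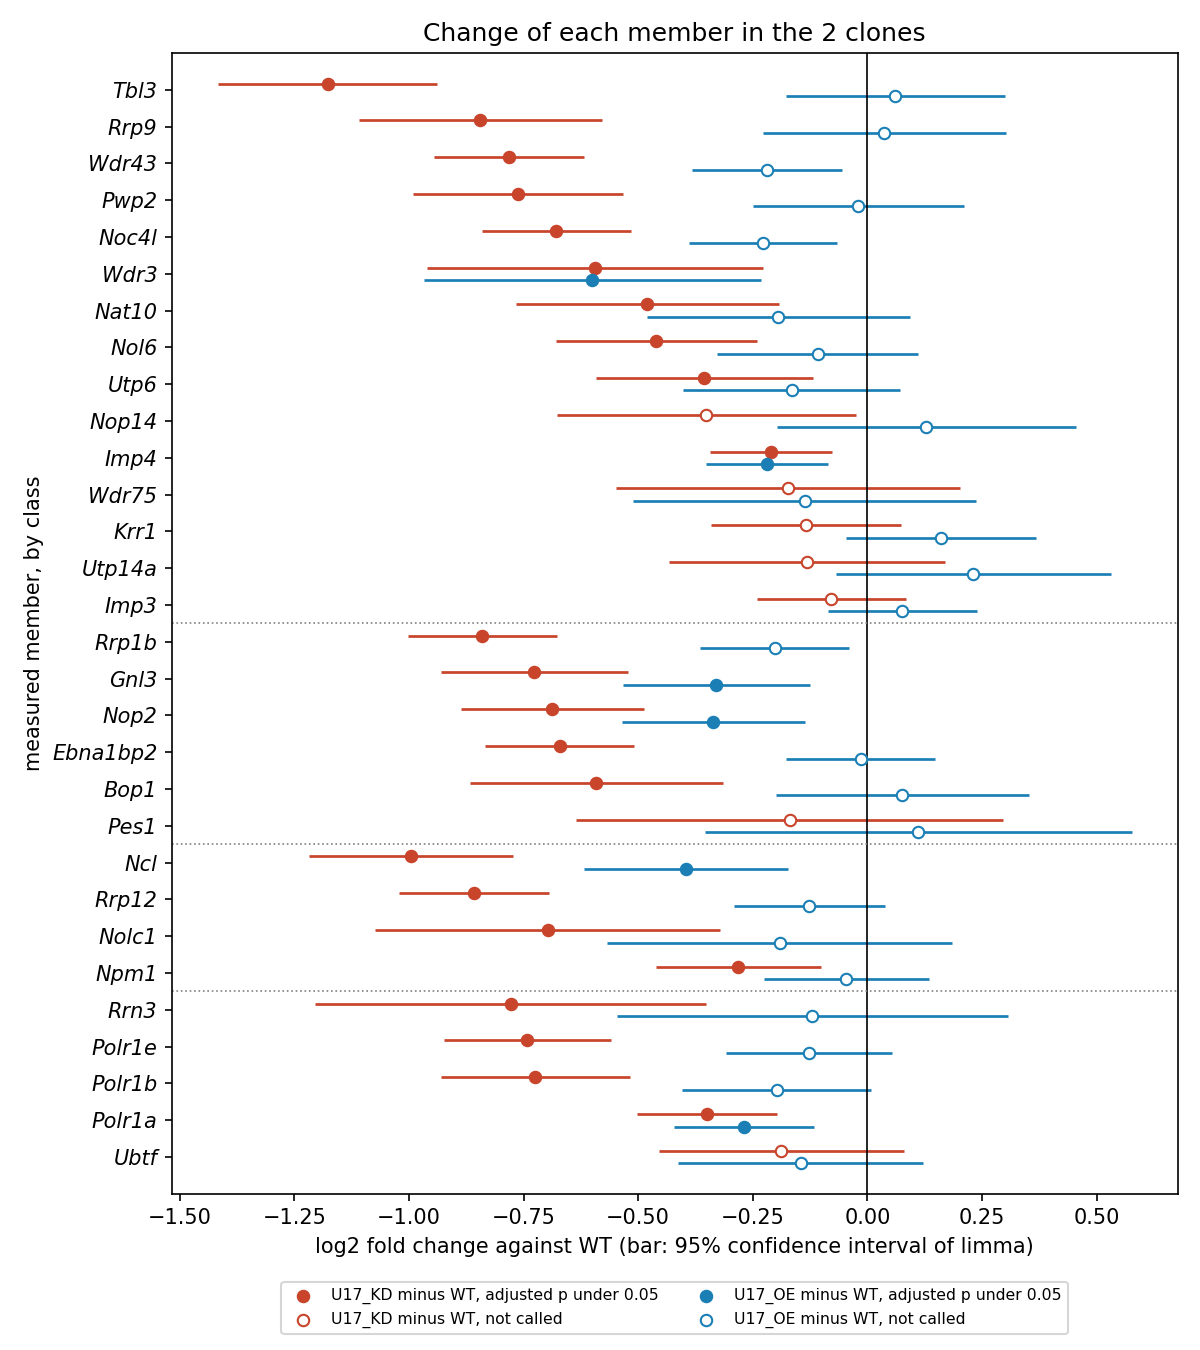
Log2 fold change of each of the 30 measured members in U17_KD minus WT (red) and U17_OE minus WT (blue), by class, with bars for the 95% confidence interval of limma over 4 arrays a group and filled points for adjusted p under 0.05. All red points lie below 0, from -1.18 (Tbl3) to -0.08 (Imp3), and 6 blue points are filled.

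In the small subunit processome, 10 of 15 measured genes were lower in U17_KD and 0 higher, with a median of -0.46, where 20.4% of all genes were lower and 20% higher. The largest fall was in Tbl3, a WD-repeat protein of the UtpB complex, which binds the start of the precursor. Its log2 intensity was 8.97, 9.0, 8.96 and 8.96 in WT, 7.89, 7.98, 7.75 and 7.56 in U17_KD and 8.99, 8.81, 9.28 and 9.05 in U17_OE. The knockdown arrays all lay below the others, at 44.2% of the WT level once converted back to linear values, and WT and U17_OE overlapped. The difference from WT was -1.18 (± 0.11 SE, adjusted p = 1.72e-07).

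Rrp9, the protein that marks the U3 particle, read 9.62, 9.66, 9.56 and 9.37 in WT, 8.88, 8.56, 8.65 and 8.73 in U17_KD and 9.34, 9.38, 9.97 and 9.66 in U17_OE. It fell in U17_KD (-0.84 ± 0.13 SE, adjusted p = 3.30e-05) to 55.7% of WT, and no knockdown array reached the lowest array of the other groups. Wdr43, of the UtpA complex that meets the precursor while it is transcribed, had 11.22, 11.35, 11.24 and 11.29 in WT, 10.41, 10.51, 10.54 and 10.51 in U17_KD and 11.13, 10.91, 11.18 and 11.0 in U17_OE. Its values separated all groups, with U17_KD lowest, and the fall in U17_KD passed (-0.78 ± 0.08 SE, adjusted p = 2.36e-07), whereas the difference of -0.22 in U17_OE did not (adjusted p = 0.0791). Pwp2, a further UtpB subunit, was at 9.81, 10.10, 9.73 and 9.70 in WT, 9.04, 9.01, 9.0 and 9.25 in U17_KD and 9.63, 9.73, 10.03 and 9.87 in U17_OE. U17_KD lay below both other groups, which overlapped (-0.76 ± 0.11 SE, adjusted p = 2.14e-05). The other kept probe of Pwp2 had -0.37 (adjusted p = 0.0579).

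Of the other processome genes, Noc4l, which pairs with Nop14, fell by 0.68 in U17_KD and Nol6, of the UtpC complex, by 0.46 (adjusted p = 1.32e-06 and 0.00185). Nat10, which acetylates cytidines of the small subunit RNA, fell by 0.48 (adjusted p = 0.00944), and Utp6, of UtpB, by 0.36 (adjusted p = 0.0185). The call of Utp6 was lost without WT replicate 1, WT replicate 3 or U17_KD replicate 2, with an adjusted p of up to 0.0645. Imp3, Imp4 and Mphosph10 form 1 complex with the U3 RNA. Imp3 had 12.09 ± 0.07 in WT and 12.01 ± 0.13 in U17_KD (SD, n = 4) and did not pass (-0.08, 95% interval -0.24 to 0.08). Its partner Imp4 was at 12.10, 12.17, 12.24 and 12.14 in WT, 11.98, 11.97, 11.91 and 11.96 in U17_KD and 11.95, 11.92, 11.93 and 11.98 in U17_OE. Both clones lay below all WT arrays by a small amount, -0.21 for U17_KD and -0.22 for U17_OE (adjusted p = 0.0138 and 0.0306). The call in U17_KD was lost without WT replicate 3 (adjusted p = 0.0562) and with no filter on detection. At the other kept probe of Imp4 the difference in U17_KD was -0.22 (adjusted p = 0.0578). The call in U17_OE was lost in 9 of 21 other settings, and the other probe had -0.15 there (limma adjusted p = 0.344).

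Wdr3, of UtpB, was dim, at 6.61, 5.81, 6.53 and 6.39 in WT, 5.78, 5.65, 5.65 and 5.88 in U17_KD and 6.05, 5.62, 5.57 and 5.70 in U17_OE. WT replicate 2 lay within the range of the clones, and the clones lay close to the detection level, which is 5.54 on this scale. Its difference from WT was -0.59 for U17_KD and -0.60 for U17_OE (adjusted p = 0.0115 and 0.0321). The processome gene with the largest difference that did not pass was Nop14, at 7.07, 6.61, 7.37 and 7.21 in WT, 6.87, 6.58, 6.71 and 6.69 in U17_KD and 7.17, 7.33, 6.91 and 7.36 in U17_OE. WT and U17_KD overlapped through WT replicate 2 (-0.35 ± 0.16 SE, adjusted p = 0.0854), and without that array the difference of -0.50 passed (adjusted p = 0.0105). Without U17_OE replicate 3 it passed as well. Utp14a, which activates a processome helicase, Wdr75, of UtpA, and Krr1, an RNA-binding assembly factor, had -0.13, -0.17 and -0.13 and did not pass (adjusted p = 0.511, 0.485 and 0.312). Not measured were Utp3, Utp15, Utp18, Utp20 and Wdr36, with no array at the detection level, and Mphosph10, detected on 1 array of U17_OE.

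**Figure D2:**
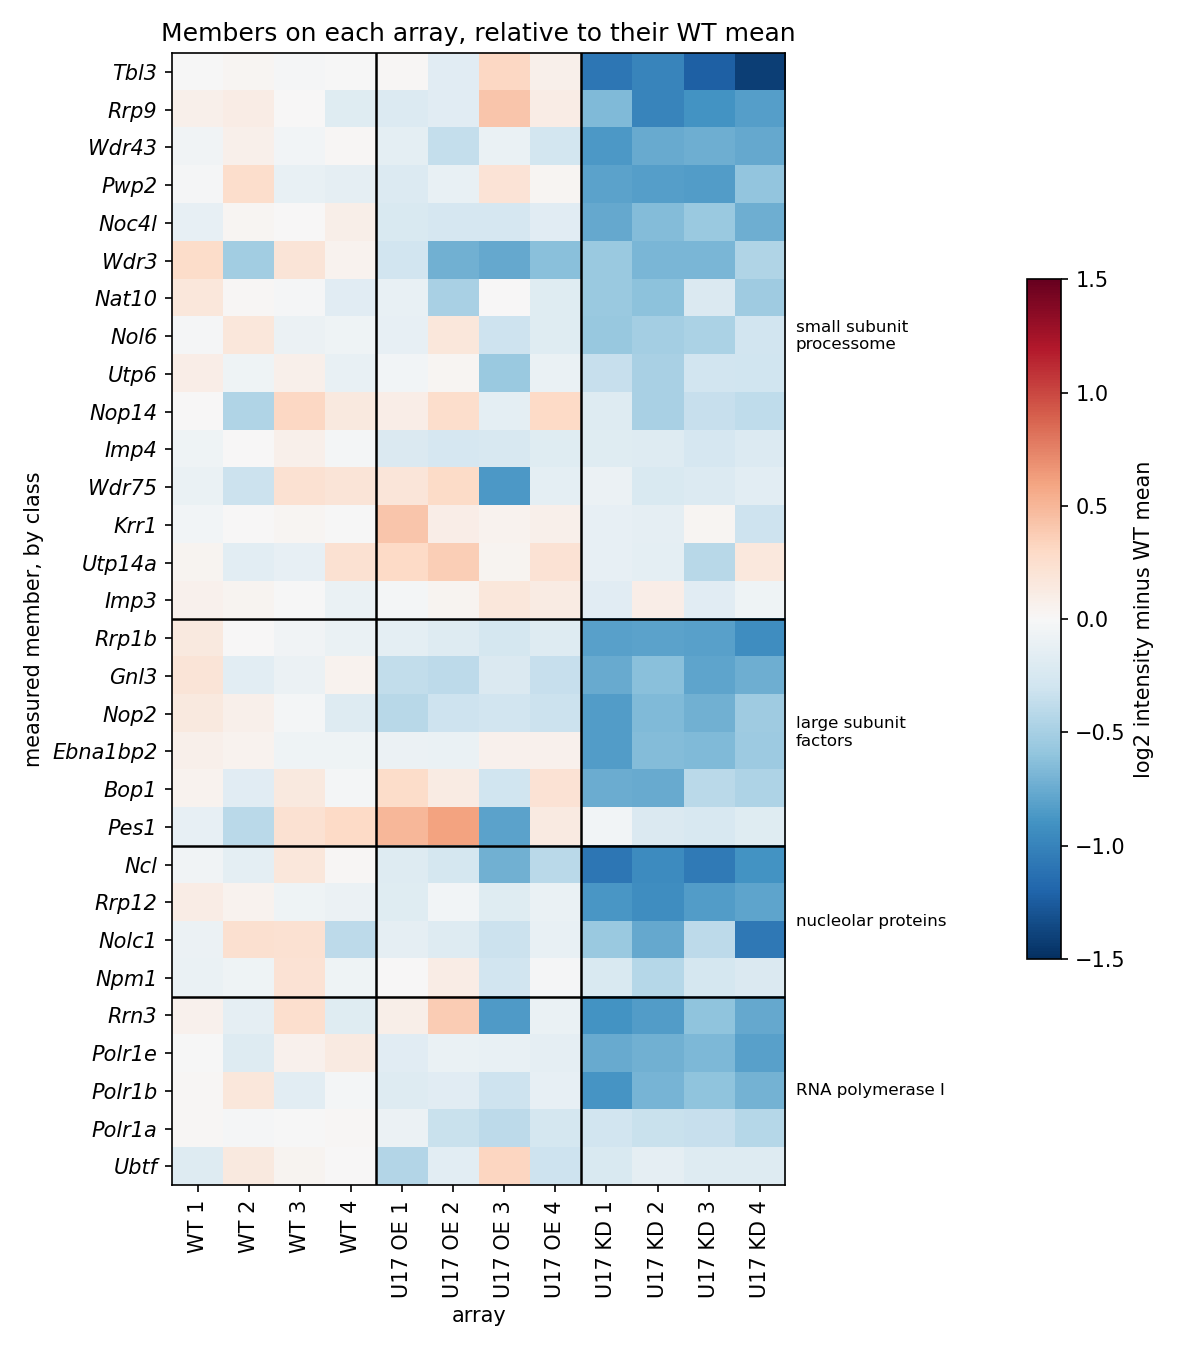
Log2 intensity minus the gene's WT mean for the 30 measured members (rows, by class and ordered by change) on the 12 arrays (columns, by group), red above and blue below the WT mean. The U17_KD columns are blue for most genes, with array medians of -0.65 to -0.52, and U17_OE replicate 3 departs from its group in Pes1, Wdr75 and Rrn3.

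Large subunit factors fell in U17_KD for 5 of 6 measured genes, with a median of -0.68, where 20.4% of all genes were lower. Rrp1b, a nucleolar protein related to a yeast large subunit factor, had 11.05, 10.92, 10.85 and 10.81 in WT, 10.10, 10.10, 10.09 and 9.98 in U17_KD and 10.76, 10.71, 10.64 and 10.71 in U17_OE. The knockdown arrays formed a tight group below all others, and its 3 kept probes all fell in U17_KD (-0.84 ± 0.08 SE, adjusted p = 8.75e-08 at the probe used). Gnl3, the GTPase nucleostemin, read 9.44, 9.08, 9.15 and 9.30 in WT, 8.49, 8.61, 8.45 and 8.51 in U17_KD and 8.87, 8.85, 9.02 and 8.90 in U17_OE. The groups did not overlap, with U17_KD lowest and U17_OE between it and WT (-0.73 ± 0.10 SE, adjusted p = 9.48e-06 in U17_KD). The same order without overlap held for Nop2, a methyltransferase of the large subunit RNA, at 10.11, 10.04, 9.93 and 9.76 in WT, 9.12, 9.30, 9.24 and 9.42 in U17_KD and 9.54, 9.65, 9.67 and 9.63 in U17_OE. It fell by 0.69 in U17_KD (adjusted p = 1.39e-05), as did its other kept probes (-0.49 and -0.75).

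Ebna1bp2, a large subunit assembly factor, was at 12.29, 12.26, 12.14 and 12.15 in WT, 11.38, 11.57, 11.55 and 11.67 in U17_KD and 12.12, 12.12, 12.27 and 12.28 in U17_OE. U17_KD was below both other groups, which overlapped (-0.67 ± 0.08 SE, adjusted p = 1.55e-06). Bop1, Pes1 and Wdr12 form the PeBoW complex, needed to mature the large subunit RNA. Bop1 fell by 0.59 in U17_KD (adjusted p = 0.00151), Wdr12 was detected on 0 arrays, and Pes1 read 9.23, 8.94, 9.58 and 9.65 in WT, 9.31, 9.13, 9.11 and 9.17 in U17_KD and 9.85, 9.95, 8.55 and 9.49 in U17_OE. The knockdown values of Pes1 lay within the range of WT (-0.17 ± 0.22 SE, adjusted p = 0.592), and U17_OE replicate 3 was the lowest of all 12 arrays. Nol9, a kinase that acts on cut precursor ends, was detected on 3 arrays and not measured.

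Each of the 4 nucleolar proteins of both subunits was called lower in U17_KD, where 20.4% of all genes were. Of these, Nolc1 passed the detection filter only through WT and U17_OE. The other 3 were called with only probes detected on all arrays, for which the share of all genes is not given. Ncl, which encodes nucleolin, a major nucleolar protein that binds the precursor, had 11.01, 10.93, 11.24 and 11.09 in WT, 9.98, 10.12, 10.01 and 10.17 in U17_KD and 10.87, 10.81, 10.35 and 10.66 in U17_OE. The 3 groups did not overlap, and U17_KD stood at 50.2% of the WT level (-0.99 ± 0.11 SE, adjusted p = 5.74e-07). Its other kept probe also fell (-0.94). Rrp12, which helps export both precursor subunits, was at 10.93, 10.87, 10.75 and 10.73 in WT, 9.95, 9.88, 9.99 and 10.03 in U17_KD and 10.64, 10.78, 10.64 and 10.72 in U17_OE. U17_KD lay below both other groups (-0.86 ± 0.08 SE, adjusted p = 7.49e-08), and U17_OE overlapped WT.

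Npm1, nucleophosmin, which shapes the outer layer of the nucleolus, read 14.96, 14.99, 15.28 and 14.99 in WT, 14.83, 14.63, 14.79 and 14.84 in U17_KD and 15.07, 15.17, 14.77 and 15.03 in U17_OE. All knockdown arrays lay below all WT arrays by a small amount (-0.28 ± 0.09 SE, adjusted p = 0.0144), and the call was lost without WT replicate 3 (-0.21, adjusted p = 0.0655), without U17_KD replicate 2 and with no mean-variance trend. Nolc1, a chaperone of small nucleolar RNA particles, was near the detection level, at 5.76, 6.09, 6.07 and 5.46 in WT, 5.29, 5.07, 5.45 and 4.77 in U17_KD and 5.71, 5.65, 5.52 and 5.73 in U17_OE. It was detected on 3 WT, 0 U17_KD and 3 U17_OE arrays and its knockdown level was lower than that of WT by at least 1.23-fold, a bound set by the detection level (adjusted p = 0.00464); against U17_OE the bound was 1.08-fold (adjusted p = 0.0395).

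In RNA polymerase I, 4 of 5 genes were lower in U17_KD, with a median of -0.72, where 20.4% of all genes were lower. Polr1a, the largest subunit, which carries the catalytic site, had 12.27, 12.24, 12.26 and 12.27 in WT, 11.97, 11.93, 11.91 and 11.83 in U17_KD and 12.17, 11.93, 11.87 and 11.99 in U17_OE. Both clones lay below all WT arrays and overlapped each other (-0.35 ± 0.07 SE, adjusted p = 8.95e-04 in U17_KD). Of its 3 other kept probes, 2 fell in U17_KD (-0.61 and -0.52) and 1 was not called (-0.44, adjusted p = 0.0741). Polr1b, the other large core subunit, was at 9.25, 9.41, 9.07 and 9.21 in WT, 8.35, 8.54, 8.63 and 8.52 in U17_KD and 9.05, 9.06, 8.93 and 9.11 in U17_OE. The knockdown arrays were lowest, and U17_OE overlapped WT (-0.72 ± 0.10 SE, adjusted p = 1.14e-05). Polr1e, a subunit that the enzyme uses at initiation, read 10.01, 9.82, 10.08 and 10.15 in WT, 9.26, 9.30, 9.34 and 9.20 in U17_KD and 9.85, 9.92, 9.90 and 9.88 in U17_OE, and fell in U17_KD (-0.74 ± 0.09 SE, adjusted p = 1.81e-06) with no overlap with either group.

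Rrn3, the factor that makes the polymerase competent to start and whose activity is known to follow growth signals, was dim, at 6.47, 6.28, 6.67 and 6.22 in WT, 5.52, 5.57, 5.80 and 5.64 in U17_KD and 6.49, 6.79, 5.57 and 6.31 in U17_OE. U17_KD lay below WT on all arrays (-0.78 ± 0.20 SE, adjusted p = 0.0052) and was detected on 3 of 4, and U17_OE replicate 3 fell within the knockdown range. Ubtf, which binds the gene of the precursor, did not pass, with 9.82, 10.16, 10.06 and 10.02 in WT, 9.79, 9.88, 9.82 and 9.82 in U17_KD and 9.58, 9.86, 10.34 and 9.70 in U17_OE. Its difference was -0.19 in U17_KD (95% interval -0.46 to 0.08), and its other kept probe had 0.03, so the sign differed between its probes.

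**Figure D3:**
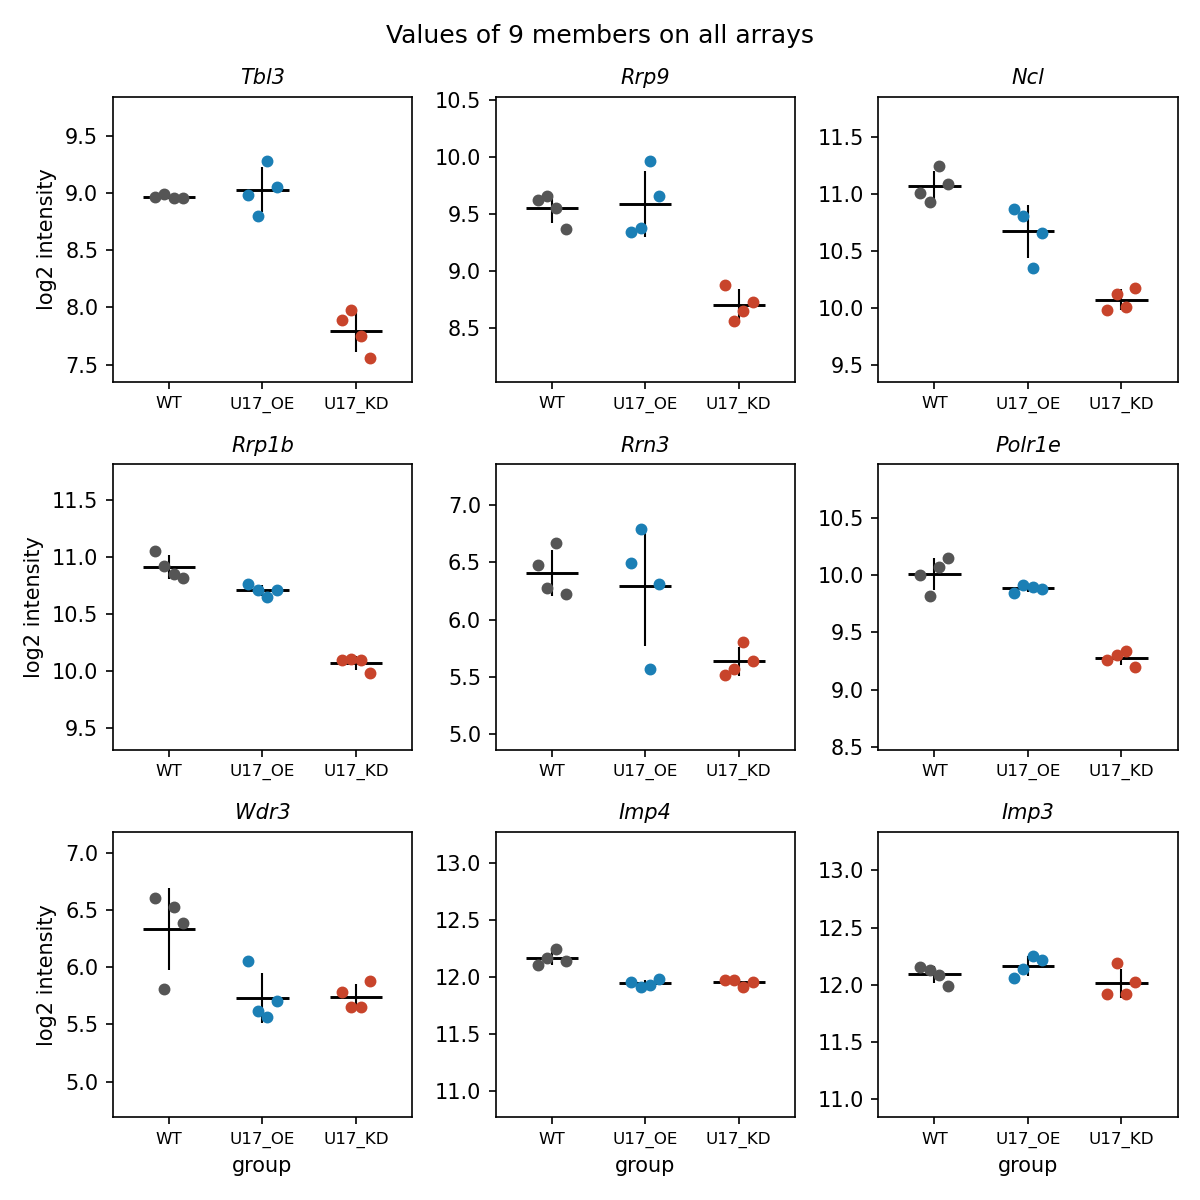
Log2 intensity of 9 members on each array (points), with the group mean (horizontal line) and SD (vertical line, n = 4); each panel spans the same range of the log2 scale. U17_KD lies lowest for Tbl3, Rrp9, Ncl, Rrp1b and Polr1e, both clones lie below WT for Imp4, and Imp3 overlaps in all groups.

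In the overexpression clone few members were called, and in the same direction. Against WT, 6 of 30 were lower, 0 higher and 24 did not pass, where 6.37% of all genes were called lower and 6.48% higher. U17_OE lay below WT on all arrays for 8 members, against 7.89% of genes, and above it for 1, Krr1 (0.16, adjusted p = 0.346), against 8.09% of genes. The median of the measured members was -0.13, beside -0.01 for all genes. The called genes were Wdr3 (-0.60), Ncl (-0.40 ± 0.11 SE, adjusted p = 0.0195), Nop2 (-0.34 ± 0.10 SE, adjusted p = 0.0273), Gnl3 (-0.33 ± 0.10 SE, adjusted p = 0.0342), Polr1a (-0.27 ± 0.07 SE, adjusted p = 0.021) and Imp4 (-0.22). At their other kept probes, Polr1a was also called at 2 of 3 (-0.65 and -0.72), while Ncl, Imp4 and both of Nop2 were not. Rrp1b, not called at the probe used, was called lower at 1 of its 2 other kept probes (-0.30, adjusted p = 0.0188).

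These 6 calls depended on which arrays and groups entered the fit. The count was 0 without U17_OE replicate 4 and 0 with only WT and U17_OE in the fit, 1 without WT replicate 3 or WT replicate 4, 2 without WT replicate 1 or U17_OE replicate 2, and 8 without U17_OE replicate 3, when Pes1 was called higher (0.41). The range of adjusted p over the alternatives was 0.00917 to 0.0804 for Ncl and 0.0101 to 0.12 for Gnl3. The differences that came next, Noc4l (-0.23, adjusted p = 0.0658) and Wdr43 (-0.22, 0.0791), did not pass. Tbl3 and Rrp9, which led the processome falls in U17_KD, had 0.06 (95% interval -0.18 to 0.30) and 0.04 (-0.23 to 0.30) in U17_OE.

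The clones were then compared with each other, which tests whether a gene differs between them. In U17_KD, 20 of 30 members were lower than in U17_OE, 0 were higher and 10 did not pass, where 16.5% of all genes were lower. The 4 knockdown arrays lay below the 4 of U17_OE for 17 members, against 15.6% of genes, and the median difference was -0.42, beside -0.01 for all genes. The largest differences were those of Tbl3 (-1.24 ± 0.11 SE, adjusted p = 1.39e-07), Rrp9 (-0.88 ± 0.13 SE, adjusted p = 3.10e-05), Pwp2 (-0.74 ± 0.11 SE, adjusted p = 4.18e-05) and Rrp12 (-0.73 ± 0.08 SE, adjusted p = 9.02e-07). The comparisons share groups, so their counts are not independent. Of the 20 calls, that of Npm1 was lost in 15 of 21 other settings, Nolc1 in 8, Krr1 in 7, Nop14 in 5, Rrn3 in 3 and Nol6 in 2. The genes called here had 10 other kept probes, of which 6 were called lower and 4 were not. Those not called belonged to Krr1 (0.06 and -0.41), Pwp2 (-0.36) and Nop2 (-0.25).

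Set side by side, the calls separate the members into patterns. These were counted over the members only, so the share of all genes in each pattern is not given. Of all genes, 20.4% were called lower in U17_KD and 6.37% in U17_OE than in WT. In U17_KD, 16.5% of all genes were called lower than in U17_OE. Of the 23 genes lower in U17_KD than in WT, 15 were also lower in U17_KD than in U17_OE and not called in U17_OE. They were Tbl3, Rrp9, Wdr43, Pwp2, Noc4l, Nol6, Rrp1b, Ebna1bp2, Bop1, Rrp12, Npm1, Nolc1, Polr1b, Polr1e and Rrn3. Among them, Nolc1 passed the detection filter only through WT and U17_OE. Ncl, Nop2 and Gnl3 passed in all 3 comparisons, with U17_OE between WT and U17_KD. Wdr3, Imp4 and Polr1a were lower in both clones, and the clones differed by 0.01 (95% interval -0.36 to 0.37), 0.01 (-0.12 to 0.14) and -0.08 (-0.23 to 0.07), none of which passed. The 6 calls in U17_OE that set these patterns were lost in 4 (Ncl) to 9 (Imp4) of 21 other settings. Noc4l (-0.23, limma adjusted p = 0.0658) and Wdr43 (-0.22, 0.0791), not called in U17_OE, came next. The pattern of a gene can therefore change with the setting or threshold. Utp6 and Nat10 passed against WT only. Nop14 and Krr1 passed only between the clones (-0.48 and -0.30), and Utp14a, Wdr75, Imp3, Pes1 and Ubtf in no comparison. The group means ran in the order U17_KD, U17_OE, WT from low to high for 20 of 30 members, against 24.7% of all genes.

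**Figure D4:**
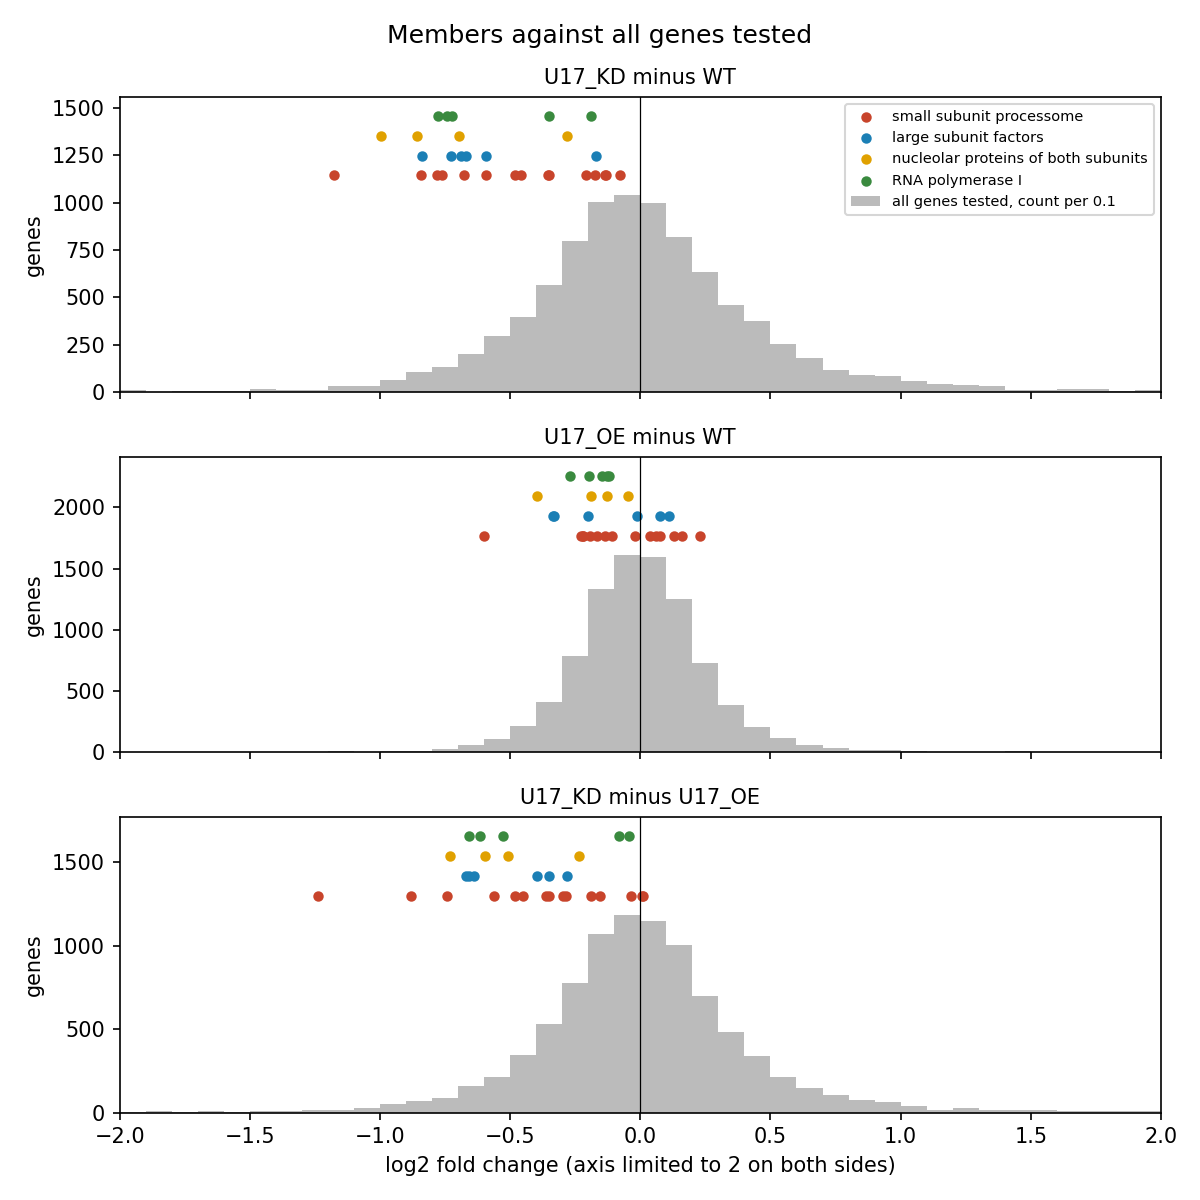
Log2 fold change of the 30 measured members (points, coloured by class) above the distribution of all 9108 genes (grey, number of genes per bin; genes beyond the axis are not drawn) in each of the 3 comparisons. The members lie left of the middle of the distribution in U17_KD minus WT (median -0.63) and U17_KD minus U17_OE (median -0.42) and near it in U17_OE minus WT (median -0.13).

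On single arrays, the median over the measured members of the distance from the WT mean was -0.03 to 0.01 in WT, -0.65 to -0.52 in U17_KD and -0.25 to -0.12 in U17_OE. Over all genes it stayed between -0.02 and 0.01. The lowest U17_OE value, -0.25, was that of replicate 3, the array that stood farthest from its group, with a mean SD of its differences from the other arrays of the group of 0.43 over the kept probes, against 0.23 to 0.34 for the other arrays. Without this array the median of U17_OE minus WT was -0.10 and that of U17_KD minus U17_OE -0.49. The part of this array's quality in these values was not tested.

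Further genes of the pathway, listed by their known roles, were also called lower more often than higher in the knockdown clone, where 20.4% of all genes were lower and 20% higher. Of 32 measured small subunit genes outside the 38, 16 were lower and 1 higher in U17_KD (median -0.34), led by Pdcd11 (-0.93), which binds the precursor, and Utp4 (-0.76), of UtpA. Tsr1, a late small subunit factor, rose by 0.56, and was detected on 2 WT, 4 U17_KD and 1 U17_OE arrays. Among large subunit genes 32 of 46 fell and 0 rose (median -0.44), with Wdr18 (-1.23), of the complex that releases the large subunit from the nucleoplasm, and Wdr74 (-1.04), a maturation factor, at the front. The RNA exosome, which trims the ends of precursor RNAs, was lower for 5 of 10 (median -0.33), led by its subunits Exosc5 (-1.02) and Exosc6 (-0.78).

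Of 9 further polymerase I genes, 4 were lower and 1 higher in U17_KD (median -0.22), where 20.4% of all genes were lower and 20% higher. Polr1g, a subunit named Cd3eap in the annotation, fell by 0.84, while Taf1a, of the promoter selectivity factor, rose by 0.72. In U17_OE, where 6.37% of all genes were lower and 6.48% higher, the same lists had 4 lower and 1 higher of 32 small subunit genes, 2 lower of 46 large subunit genes, 1 lower of 9 polymerase I genes and 0 called of 10 exosome genes (limma; 1 lower at an unadjusted p under 0.05). Nol10 (-0.57) and Dhx37 (0.53), the helicase of the processome, were the largest called differences among the small subunit genes there, and Tcof1, the treacle protein, that among the polymerase I genes (-0.44, limma adjusted p = 0.0478). Another kept probe of Tcof1 had -0.41 and was not called (adjusted p = 0.272). Mybbp1a, a nucleolar repressor of MYB, and Ddx24, a helicase, were the called large subunit genes, at -0.31 and -0.40, and 2 of the 3 other kept probes of Mybbp1a and 1 of 2 of Ddx24 were not called. Between the clones, where 16.5% of all genes were lower and 16.5% higher, U17_KD was lower than U17_OE for 13 of 32 small subunit genes, 27 of 46 large subunit genes, 3 of 9 polymerase I genes and 5 of 10 exosome genes. It was higher for 1 gene in each of the lists but the exosome, which had 0 (0 at an unadjusted limma p under 0.05). Pdcd11 (-0.85), Wdr18 (-1.07), Polr1g (-0.64) and Exosc5 (-0.99) led there.

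**Figure D5:**
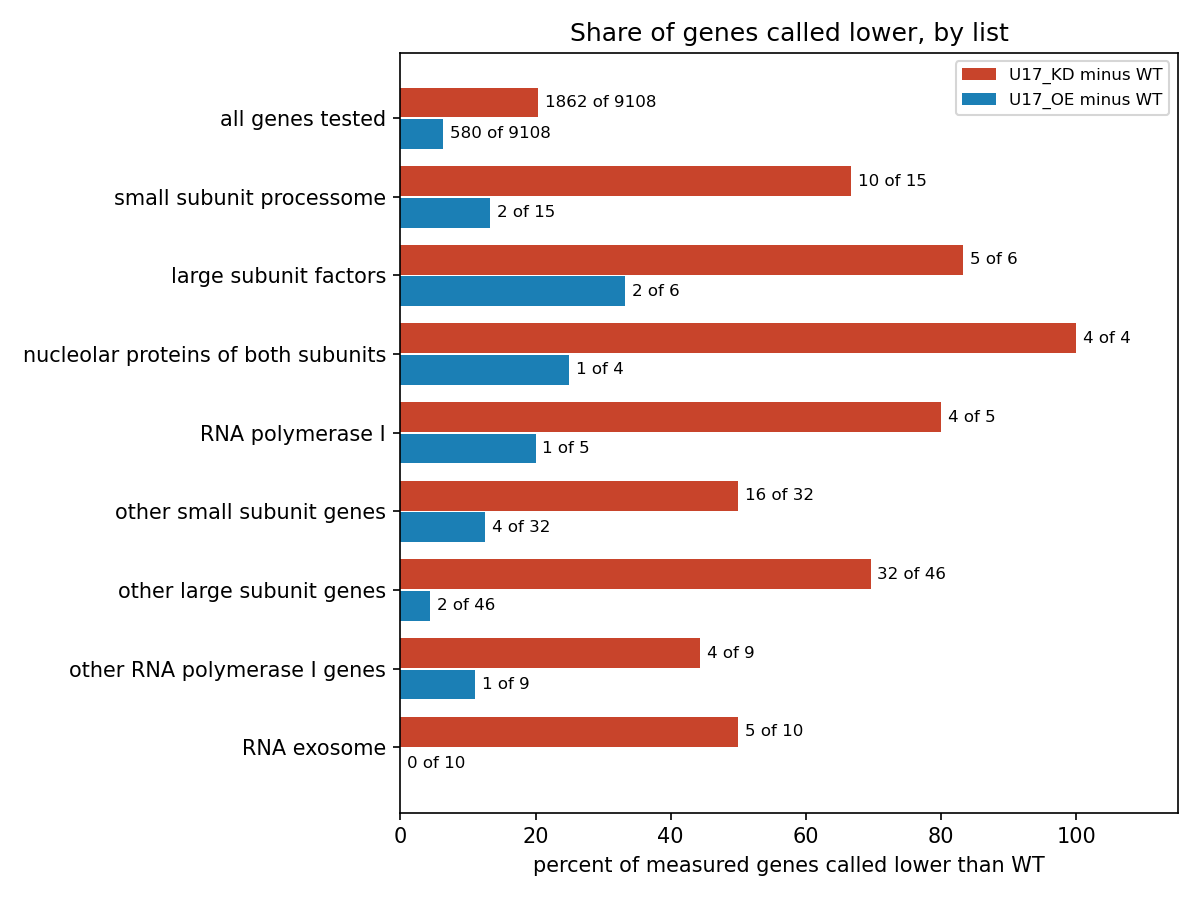
Percent of measured genes called lower than WT (bars from 0, with counts beside them) in U17_KD (red) and U17_OE (blue) for all genes tested, the 4 classes of members and 4 lists of further genes of the pathway. In U17_KD the share is 20.4% of all genes, 66.7 to 100% in the classes and 44.4 to 69.6% in the further lists; in U17_OE it is 6.37% of all genes, 13.3 to 33.3% in the classes and 0 to 12.5% in the further lists.

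Values of MYC and related genes and of proliferation genes are given here, and their part in the result was not tested. Myc fell in U17_KD (-0.66, adjusted p = 0.000962) and had -0.20 in U17_OE (adjusted p = 0.41). Mxd4, which encodes an antagonist of MYC, rose by 1.59 in U17_KD and by 0.89 in U17_OE (adjusted p = 3.49e-10 and 7.07e-06), and its 2 other kept probes also rose in both clones. Mxd3, of the same family, rose in U17_KD (0.62). Of 6 measured genes of this list of MYC and related genes, 1 was lower and 2 higher in U17_KD, where 20.4% of all genes were lower and 20% higher. The other 3, Max (-0.30), Mnt (-0.18) and Mga (-0.06), did not pass. In U17_OE, 0 of the 6 were lower and 1 higher, where 6.37% of all genes were lower and 6.48% higher. Of 20 measured genes of a proliferation list, 9 were lower and 0 higher in U17_KD (median -0.23), where 20.4% of all genes were lower, and 5 were lower in U17_OE (median -0.13), where 6.37% were. Rrm2, a subunit of ribonucleotide reductase, led both (-1.12 and -0.79), followed in U17_KD by cyclin D1, Ccnd1 (-0.74), and in U17_OE by cyclin E1, Ccne1 (-0.53). Between the clones, 3 of the 20 proliferation genes were lower in U17_KD than in U17_OE and 0 higher (median -0.12). Of the 6 MYC and related genes, 1 was lower and 2 higher there. Of all genes, 16.5% were lower and 16.5% higher in that comparison.

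The fibroblast label was checked with 12 markers, of which 9 were detected on all 12 arrays and Postn on 0. Their summed intensity was 51837 to 59082 in WT, 60629 to 64237 in U17_KD and 50540 to 59170 in U17_OE, and of the 11 measured, 7 were higher and 2 lower in U17_KD than in WT, where 20% of all genes were higher and 20.4% lower. Lum was detected on 4 WT arrays and on 0 arrays of either clone. Of markers of other cells, the defining leukocyte genes Ptprc, Adgre1 and Itgam, the epithelial genes Epcam, Krt18, Krt19 and Cldn4, the endothelial genes Pecam1, Cdh5 and Tek, the muscle gene Myod1 and the adipocyte genes Adipoq, Plin1 and Fabp4 were detected on 0 arrays. Other members of these lists were detected. Cd14, a leukocyte marker, was detected on all 12 arrays, with a mean log2 intensity of 8.84 for WT against 8.89 (U17_KD) and 9.36 (U17_OE), and was higher in U17_OE than in WT (0.52, adjusted p = 0.00172). Acta1, a muscle actin, was detected on 4 WT arrays and on 0 of either clone, and its mean was 7.02 in WT against 4.62 (U17_KD) and 4.81 (U17_OE). Krt8, an epithelial keratin near the detection level, fell in U17_KD (-0.46, adjusted p = 0.0402). Csf1r, Cdh1, Kdr, Myog, Des and Lep were each detected on some arrays, with group means of 5.49 to 5.80, and did not pass against WT in either clone. The summed intensity of the leukocyte markers was 431 to 535 in WT, 488 to 530 in U17_KD and 632 to 775 in U17_OE, and that of the muscle markers was 159 to 216, 69.0 to 103 and 55.2 to 79.3. The part of these genes in the result was not tested. Between arrays, the correlation over kept probes was 0.980 to 0.995 within a group and 0.966 to 0.989 between groups.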

How the data were processed

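Gene expression was measured on Illumina bead arrays in 12 samples, grouped by their titles. Oligo-dT primed the cDNA, per the labels' protocols; GenomeStudio 2010 is the tool in the submitters' processing notes. The deposited intensity values are normalized and linear, and about 37.7% of them lie below 0 on each array. The authors' method of normalization is not stated. A further deposited table holds unnormalized intensity and detection p-values, per the file headers. Its 8 signal and detection p-value columns of WT were used, and the other 40 of 48 columns were left out because their names match no label.

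Background mean (0.492) and SD (15.8), from the detection p-values of WT, entered the normexp correction of all arrays. Log2 was taken after adding 16. Detection meant a value of at least 30.5, set from the WT detection p-values at 0.05; on WT arrays it gave another answer than the p-value for 0.155 to 1.51% of probes, and on the clones it was not tested. The filter kept 16706 of 45281 probes, those detected on 4 or more arrays. Names came from the platform annotation (34885 probes with 1 symbol, 18 with several, 10378 not listed), and a gene was given by its probe with the highest mean.

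Limma 3.58.1 in R 4.3.3 fitted 1 model to the 3 groups (9 residual degrees of freedom, mean-variance trend), with two-sided p-values Benjamini-Hochberg adjusted across all kept probes and a threshold of 0.05. It was tested on simulated data. Same-numbered arrays did not deviate together (correlations of deviations -0.38 to 0.09), so replicate numbers were not used as a block.

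The members, classes and lists were chosen with earlier results of these data known, and no list was tested as a set. All members are named. Values on every array are given for the 4 called genes with the largest change in each class, for genes called in U17_OE and for the largest difference not called in a class, and for other lists the 2 largest called changes. Exceptions to this rule are Tsr1, Mxd3, Max, Mnt, Mga, the single marker genes given with values and the E-box windows, chosen after their values were seen. Alternatives covered the background correction, offset, normalization, filter, variance model, samples in the fit, replicate block, probe choice and leaving out each array. Sequences are from RefSeq, build GRCm38.p6. The number of arrays limits the precision.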

Additional observations from a re-analysis of the deposited data

Results flagged for a closer look

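In 4 of the 90 groups of 4 arrays formed by the 30 measured members, 1 array lay apart from its group by Dixon's test, where chance alone flags about 1 group in 20. Krr1 was highest in U17_OE replicate 1, at 9.86 on the log2 scale against 9.49 to 9.54 in the other arrays of the group. In U17_KD, replicate 4 was highest for Pwp2, at 9.25 against 9.0 to 9.04, and lowest for Rrp1b, at 9.98 against 10.09 to 10.10. Npm1 was highest in WT replicate 3, at 15.28 against 14.96 to 14.99, and the call of Npm1 in U17_KD minus WT was lost without that array.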

How the results depend on the processing

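The count of members lower in U17_KD minus WT (23) was 21 to 23 over the other settings and 20 to 24 when each array was left out. The count in U17_KD minus U17_OE (20) was 17 to 20 and 16 to 23, and 0 members were higher in either comparison under any of these. The median of U17_KD minus WT (-0.63) was -0.52 with normexp fitted to each array, -0.48 with an offset of 50 and -0.41 with no filter on detection, which adds genes near background, and -0.66 to -0.58 over arrays left out. For U17_KD minus U17_OE (-0.42) the same settings gave -0.37, -0.35 and -0.32, with -0.49 to -0.40 over arrays left out. The count lower in U17_OE minus WT (6) was 2 with no filter on detection, 0 with only the 2 groups compared and 3 with the replicate block. It was 0 to 8 over arrays left out, with 0 or 1 higher. With no filter, counts are over all 38 members, and 2.13% of 19057 genes were lower in U17_OE minus WT. In U17_KD minus U17_OE, 17 of 38 members were then lower, where 6.4% of genes were. For the other settings the share of all genes is not given here. The cause of these changes in count was not tested. The replicate numbers do not pair the samples, and the block left 23 lower in U17_KD minus WT.

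For single members, 0 called differences changed sign, and 28 uncalled values did. A block by slide was not run, since array names were tied to samples only for WT. Signal over background limits Wdr3, Rrn3 and Nolc1, and the 8 members below the filter.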
